A study of Mus musculus with 12 samples.

Results

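The comparison was between BV2 cells with Anxa2 knocked down (shAnxa2-OGDR, 3 libraries) and BV2 cells with a control shRNA (shCtrl-OGDR, 3 libraries), both after oxygen-glucose deprivation and reoxygenation (OGD/R). BV2 is an immortalized mouse microglial line, and OGD/R is a culture model of ischemia followed by reperfusion. These 6 libraries are part of a series of 12, in which the other 6 are the same 2 lines without OGD/R (shCtrl-CTRL and shAnxa2-CTRL, 3 libraries each), and they were chosen by their sample titles. By the labels, both OGDR groups had 4 h of deprivation and 12 h of reoxygenation, while the study's methods give a longer reoxygenation. Both lines were made with lentivirus from the pLKO.1 vector and selected with puromycin, and each is 1 stable line with 1 shRNA, so the effect of the shRNA and that of the line cannot be told apart. The study's methods call the libraries of a group biological replicates of the same stable line, so p-values measure the spread within these lines. Bulk RNA was sequenced, and of 21834 genes counted, the 11626 with at least 0.5 CPM (counts scaled to the size of the library) in at least 3 libraries were tested.

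Annexin A2 is a calcium-dependent phospholipid-binding protein that sits at the plasma membrane and at endosomes, where it links membrane to actin. It forms a complex with S100a10 that binds plasminogen and its activator at the cell surface. Microglia are the resident macrophages of the brain. Cells short of oxygen stabilize hypoxia-inducible factors (HIF), which switch on glycolysis, angiogenic factors and mitophagy receptors. Cells short of glucose or amino acids, or with unfolded proteins in the endoplasmic reticulum, translate the transcription factor ATF4 (the integrated stress response) and raise autophagy. Reoxygenated microglia are known for cytokine and chemokine production through NF-κB and for phagocytosis of damaged cells.

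The labels of these libraries conflict. The title places a library in a line and a treatment, but the cell type field calls all 6 OGDR libraries Anxa2 knockdown and all 6 CTRL libraries WT, so libraries were grouped by title. Total counts were 19521877 to 26032961 in shCtrl-OGDR and 19946882 to 25260931 in shAnxa2-OGDR. Over the genes tested, the root mean square distance in log2 CPM was 0.279 to 0.309 within groups and 0.706 between the OGDR groups, the largest between any 2 of the 4 groups. The shAnxa2-OGDR libraries lay nearest to shCtrl-CTRL, at 0.444, and the shCtrl-OGDR libraries nearest to shAnxa2-CTRL, at 0.483. Mitochondrially encoded counts crossed in the same way, with 0.251% to 0.272% of counts in shCtrl-OGDR, 0.272% to 0.286% in shAnxa2-CTRL, 0.331% to 0.38% in shAnxa2-OGDR and 0.402% to 0.472% in shCtrl-CTRL. By title, mean Anxa2 was 172 CPM without and 279 CPM with OGD/R in the shCtrl line, and 40.4 and 19.6 CPM in the shAnxa2 line. Mean Nos2, the inducible nitric oxide synthase gene, was 3.10 and 54.7 CPM in the shCtrl line, and 87.6 and 7.43 CPM in the shAnxa2 line. Both were thus higher with OGD/R in the shCtrl line and lower with it in the shAnxa2 line. Whether each library had the treatment its title gives was not tested. Results are therefore set beside the line difference without OGD/R, and beside the difference of shAnxa2-CTRL from shCtrl-OGDR. The latter comparison was chosen after seeing the data and uses the same shCtrl-OGDR libraries as the main one.

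Anxa2 itself was checked first. Anxa2 (ENSMUSG00000032231; plus strand of chromosome 9, from 69360902 to 69399077 in mm39) was at 251, 294 and 291 CPM in shCtrl-OGDR and 18.2, 20.1 and 20.6 CPM in shAnxa2-OGDR, so that the groups were far apart and each was tight. Its level after OGD/R was 7.04% of control, a 93.0% reduction (log2 fold change −3.83, standard error 0.0782, adjusted p = 1.12e-21; edgeR quasi-likelihood F test, Benjamini-Hochberg over all genes tested). A two-sided exact permutation test over the libraries gave p = 0.1, the smallest p that 3 against 3 allow. Without OGD/R it was at 23.5% of control (log2 fold change −2.09), and against shCtrl-OGDR the shAnxa2-CTRL libraries were lower, at −2.79 on the log2 scale. Anxa2 was thus low in both groups titled shAnxa2, whichever shCtrl group they were set against.

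Of 11 members of the annexin and S100a10 list tested, 6 were lower (Anxa2 included), 1 was higher and 4 were not called. Without Anxa2, which the comparison targets, 5 of 10 were lower, beside 34.2% of all genes tested. Anxa6, which binds late endosomes, was at 194, 186 and 182 CPM in shCtrl-OGDR and 89.6, 86.3 and 90.8 CPM in shAnxa2-OGDR (log2 fold change −1.08, standard error 0.045, adjusted p = 7e-16), and Anxa1, known for its anti-inflammatory role, was at 37, 40.8 and 38.3 CPM in shCtrl-OGDR and 20.7, 22 and 21.4 CPM in shAnxa2-OGDR (log2 fold change −0.86, standard error 0.0749, adjusted p = 3.69e-10). In neither gene did the groups overlap. Without OGD/R, Anxa6 differed the other way, with a log2 fold change of 0.48, and Anxa1 had −0.12. The S100a10 transcript, which encodes the partner of annexin A2, did not pass the test (log2 fold change −0.06, standard error 0.0841; named after its values were seen). Among 8 tested genes of plasminogen activation, 3 were higher and 2 lower: Plaur, the urokinase receptor, was higher by 1.27 ± 0.078 (log2 fold change ± standard error), and Plgrkt, a plasminogen receptor, was lower, at −0.75 ± 0.0746.

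Over all genes, 3973 were lower in shAnxa2-OGDR (34.2% of those tested) and 3925 higher (33.8%) at an adjusted p under 0.05, which is what "called", "lower" and "higher" mean from here on. Counts of gene lists below are to be read beside these shares. At least 2-fold, 747 genes were lower (6.43%) and 425 higher (3.66%). At least 4-fold, the counts were 126 and 58, and at least 8-fold they were 32 and 14. The 3 and 3 libraries did not overlap for 8128 genes (69.9%). The median log2 fold change was −0.003 and the median of its size 0.345, with a median standard error of 0.0731. Expression varied between replicates by 5.35% beyond counting error, so differences well under 2-fold passed the test. The share at least 2-fold lower was 16.2% in the quintile of genes with the lowest CPM and 1.85% in the one with the highest. The median also moved with exon length, from 0.09 in the quintile of shortest genes to −0.09 in that of the longest (0.10 and −0.09 without OGD/R), and the part of length in the gene groups described here was not tested.

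**Figure D1:**
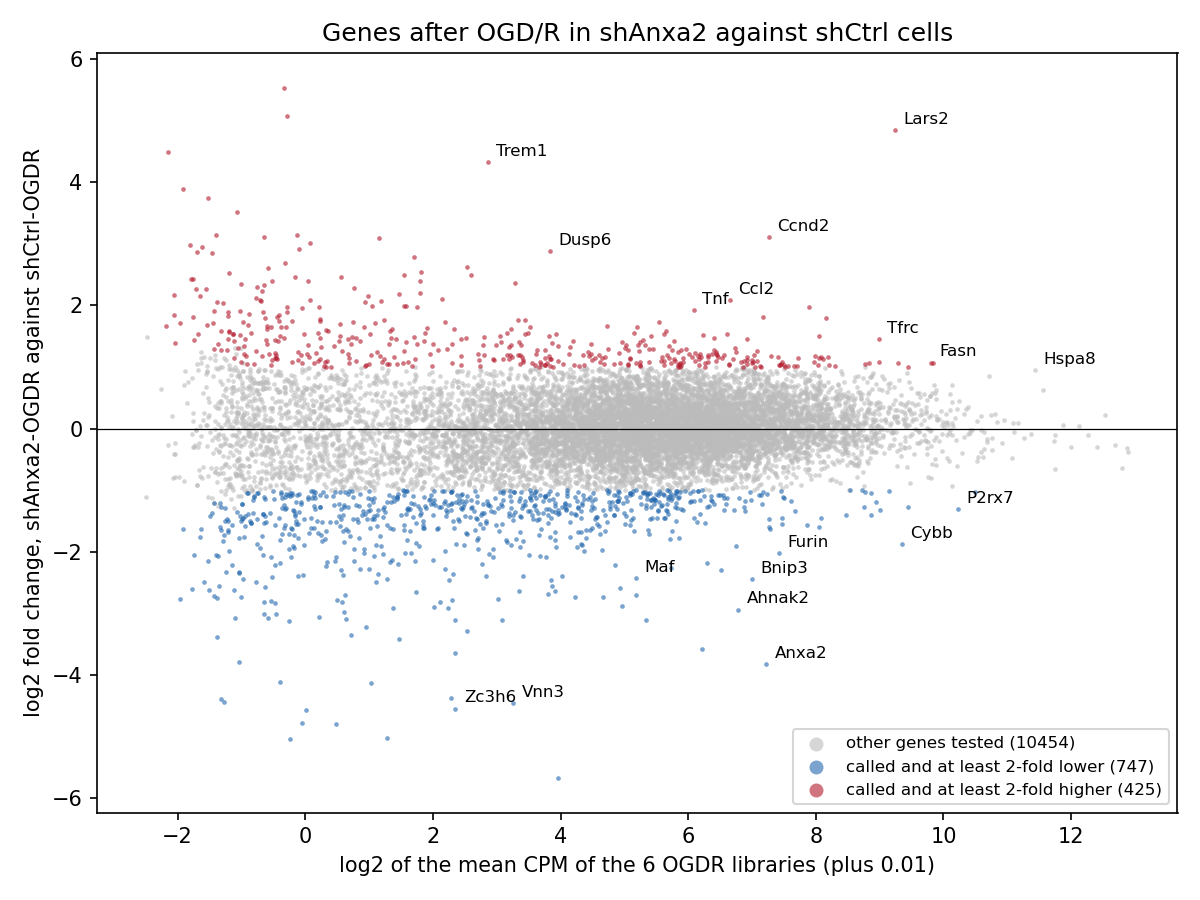
Each point is 1 of 11626 genes, placed by the log2 of its mean CPM over the 6 OGDR libraries (horizontal axis, 0.01 added) and its log2 fold change in shAnxa2-OGDR against shCtrl-OGDR (vertical axis), with 747 genes called and at least 2-fold lower in blue and 425 called and at least 2-fold higher in red. Anxa2, at −3.83, is among the lowest of the well-expressed genes, and Ccnd2, at 3.10, among the highest.

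With a mean of 5 CPM or more required, the genes that fell most were Zc3h6, a zinc finger gene (9.85, 8.01 and 11.5 CPM in shCtrl-OGDR and 0.306, 0.477 and 0.436 CPM in shAnxa2-OGDR), and Vnn3, a pantetheinase (19.5, 17.6 and 17.7 CPM in shCtrl-OGDR and 0.918, 0.795 and 0.776 CPM in shAnxa2-OGDR). Their log2 fold changes were −4.54 (standard error 0.23) and −4.46 (standard error 0.15). In both, every shAnxa2-OGDR library was under 1 CPM, so these folds rest on few counts. With 100 CPM or more required, those that fell most after Anxa2 were Ahnak2, Bnip3, Furin, Marcks, Cybb, Gys1 and Pck2. Furin, the proprotein convertase of the secretory pathway, was at 273, 273 and 277 CPM in shCtrl-OGDR and 68.8, 64.3 and 70.4 CPM in shAnxa2-OGDR (log2 fold change −2.02, standard error 0.0483, adjusted p = 2.98e-20). Marcks, which binds actin and membrane phosphoinositides, was at 155, 182 and 174 CPM in shCtrl-OGDR and 43.6, 45.7 and 47.7 CPM in shAnxa2-OGDR (log2 fold change −1.90, standard error 0.0645, adjusted p = 1.79e-17). Cybb, the catalytic subunit of the phagocyte NADPH oxidase, was at 1060, 1030 and 997 CPM in shCtrl-OGDR and 314, 283 and 243 CPM in shAnxa2-OGDR (log2 fold change −1.88, standard error 0.0698, adjusted p = 9.18e-17). Genes whose 3 and 3 libraries overlapped were left out of these rankings, so the separation of the groups is no result for them. Genes named for a list, above and below, were mostly picked for the largest called changes among its members. Separation of their groups, seen in 69.9% of all genes tested, is therefore no result about them either. At that level Ccnd2 rose most, apart from Lars2; it encodes cyclin D2 and was at 29.4, 33.9 and 32.8 CPM in shCtrl-OGDR and 269, 272 and 284 CPM in shAnxa2-OGDR (log2 fold change 3.10, standard error 0.058, adjusted p = 2.66e-22). Trem1, an activating receptor of myeloid cells, was at 0.587, 0.840 and 0.615 CPM in shCtrl-OGDR and 15.6, 13.3 and 12.8 CPM in shAnxa2-OGDR (log2 fold change 4.32, standard error 0.175, adjusted p = 4.42e-16), and was hardly detected in shCtrl-OGDR. Others of the high-expression genes that rose were Slco4a1 (1.97), Kdr (1.81), Nefh (1.80), the polyamine enzyme Odc1 (1.51), the transferrin receptor Tfrc (1.45) and Bcat1 (1.45; log2 fold changes).

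Lars2, a mitochondrial leucyl-tRNA synthetase, had a large fitted increase that 1 library carried. It was at 64.4, 36.9 and 19.9 CPM in shCtrl-OGDR and 3390, 59.6 and 68.6 CPM in shAnxa2-OGDR (log2 fold change 4.84, standard error 0.942, adjusted p = 7.86e-05). Without shAnxa2-OGDR replicate 1 the log2 fold change was 0.64, with an adjusted p of 0.0951 by edgeR, and DESeq2 gave no adjusted p for the gene.

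The line difference changed with the treatment in most genes. Without OGD/R, shAnxa2 cells were lower in 3455 genes (29.7%) and higher in 3427 (29.5%), and the test of the difference between the treatments (the interaction term) passed for 8136 genes (70%). Of all genes tested, 693 were lower in both treatments (5.96%) and 536 higher in both (4.61%). More genes differed in opposite directions: 1945 were lower after OGD/R and higher without it (16.7%), and 1947 were higher after and lower without (16.7%). Among the 747 genes at least 2-fold lower after OGD/R, 412 (55.2%) were higher without OGD/R and 97 (13%) lower, and the interaction was called for 674. Their median log2 fold change was −1.35 after OGD/R, 0.47 without it, and −0.55 for shAnxa2-CTRL against shCtrl-OGDR. Of the 425 at least 2-fold higher, 203 (47.8%) were lower without OGD/R and 58 (13.6%) higher, with medians of 1.28, −0.32 and 0.63. In shAnxa2-CTRL against shCtrl-OGDR, 2560 genes were lower (22%) and 2566 higher (22.1%) over the whole table.

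**Figure D2:**
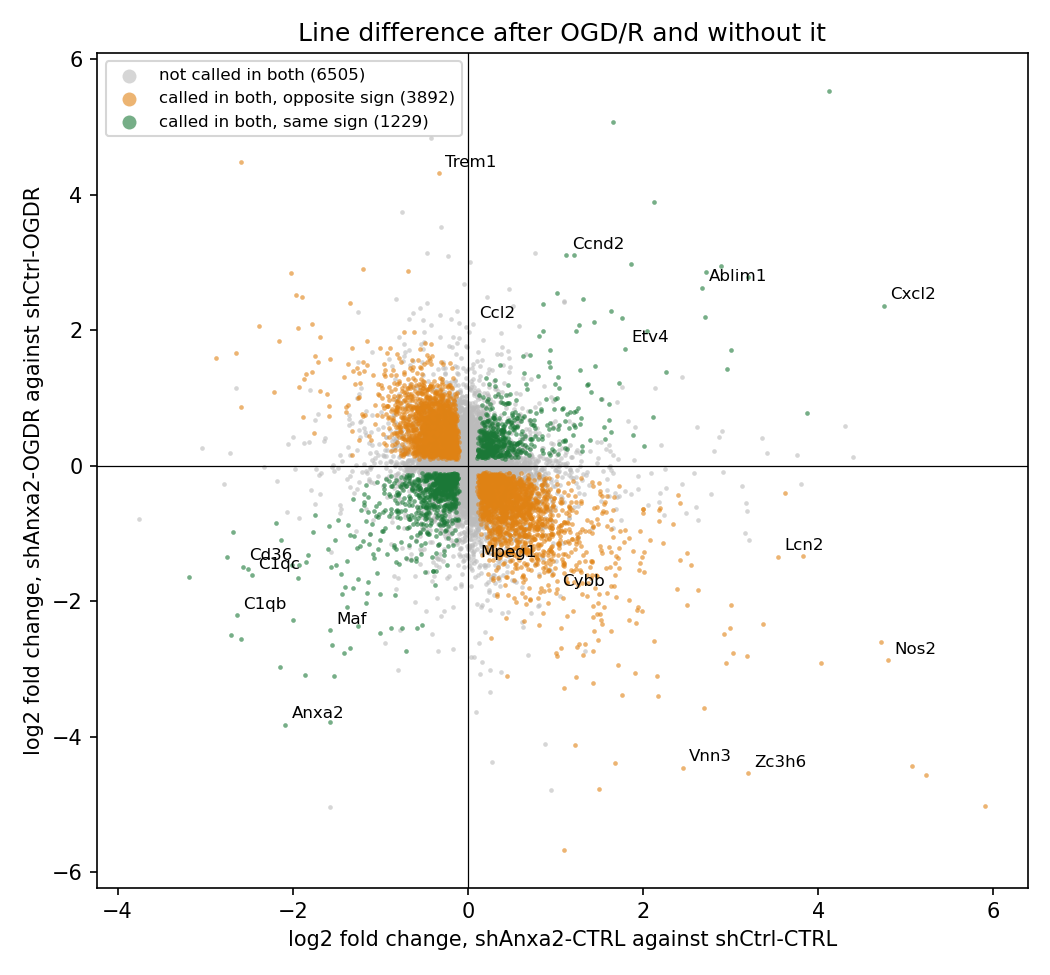
Each point is 1 gene, placed by its log2 difference between the lines without OGD/R (horizontal axis) and after it (vertical axis), with 3892 genes called in both and opposite in sign in orange and 1229 called in both with the same sign in green. Zc3h6, Vnn3 and Nos2 lie at the lower right, lower after OGD/R and higher without it, and Anxa2, C1qb and Maf at the lower left, lower in both.

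Genes of the hypoxia response were mostly lower in shAnxa2-OGDR. Of 34 members tested, 7 were higher and 20 lower, and 9 were at least 2-fold lower (median log2 fold change −0.42, against 0.47 without OGD/R and −0.01 for shAnxa2-CTRL against shCtrl-OGDR). The median over all genes was −0.003. The promoters of 4 members are shown first, in the 250 bases before the transcription start (RefSeq, GRCm38.p6), because they hold ACGTGC, the core letters HIF binds, and their genes were among the members that fell most. Capitals mark these letters on either strand. In Bnip3 the match on one strand overlaps that on the other, 101 to 103 bases before the start.
Bnip3: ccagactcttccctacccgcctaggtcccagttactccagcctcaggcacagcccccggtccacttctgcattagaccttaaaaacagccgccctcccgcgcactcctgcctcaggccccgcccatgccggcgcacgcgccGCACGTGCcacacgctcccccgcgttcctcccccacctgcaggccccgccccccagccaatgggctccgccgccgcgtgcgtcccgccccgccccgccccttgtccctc
Ddit4: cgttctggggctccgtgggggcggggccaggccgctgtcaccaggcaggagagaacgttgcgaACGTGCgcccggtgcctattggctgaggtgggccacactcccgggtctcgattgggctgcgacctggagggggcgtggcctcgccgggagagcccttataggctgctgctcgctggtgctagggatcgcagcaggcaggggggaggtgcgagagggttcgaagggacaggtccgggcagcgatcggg
Ero1a: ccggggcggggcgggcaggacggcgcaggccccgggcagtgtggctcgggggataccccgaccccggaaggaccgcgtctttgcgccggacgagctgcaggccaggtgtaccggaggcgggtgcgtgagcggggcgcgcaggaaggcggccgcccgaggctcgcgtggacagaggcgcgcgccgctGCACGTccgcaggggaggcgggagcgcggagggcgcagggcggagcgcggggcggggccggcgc
Ankrd37: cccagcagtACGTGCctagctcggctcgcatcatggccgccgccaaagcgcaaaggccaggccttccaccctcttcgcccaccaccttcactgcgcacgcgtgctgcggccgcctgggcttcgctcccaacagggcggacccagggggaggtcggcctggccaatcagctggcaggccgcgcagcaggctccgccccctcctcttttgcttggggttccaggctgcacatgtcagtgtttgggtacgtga
These lie at chr7:138909507-138909756, minus strand (Bnip3), chr10:59951771-59952020, minus strand (Ddit4), chr14:45318573-45318822, minus strand (Ero1a) and chr8:45999851-46000100, minus strand (Ankrd37).

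Bnip3, a mitophagy receptor, was at 179, 244 and 224 CPM in shCtrl-OGDR and 38.8, 42.6 and 37.6 CPM in shAnxa2-OGDR (log2 fold change −2.44, standard error 0.0932, adjusted p = 1.51e-16), and the lowest control library was more than 4-fold the highest knockdown library. Ddit4, an inhibitor of mTORC1, was at 55, 57.2 and 50.2 CPM in shCtrl-OGDR and 16.5, 16.1 and 19 CPM in shAnxa2-OGDR (log2 fold change −1.66, standard error 0.0767, adjusted p = 3.71e-15). Ero1a, the oxidase that forms disulfide bonds in the endoplasmic reticulum, was at 238, 272 and 284 CPM in shCtrl-OGDR and 93.5, 91.3 and 86.6 CPM in shAnxa2-OGDR (log2 fold change −1.55, standard error 0.061, adjusted p = 2.71e-16). Ndrg1, a stress-response gene, was at 63.6, 78.7 and 74.3 CPM in shCtrl-OGDR and 6.99, 8.54 and 9.65 CPM in shAnxa2-OGDR (log2 fold change −3.10, standard error 0.101, adjusted p = 9.01e-18), and Selenbp1, a methanethiol oxidase, fell from 110, 151 and 152 to 11, 10.8 and 12.8 CPM (log2 fold change −3.58, standard error 0.111, adjusted p = 4.78e-18). In each of these genes the groups were well apart. Without OGD/R the same genes were higher in shAnxa2 cells, with log2 fold changes of 1.44 for Bnip3, 1.40 for Ddit4, 1.18 for Ero1a, 2.16 for Ndrg1 and 2.70 for Selenbp1. Against shCtrl-OGDR, shAnxa2-CTRL cells had −0.25, −0.17, −0.27, −0.56 and −0.51 in the same order. Vegfa, the angiogenic growth factor, was also lower, at −1.06 ± 0.0566. The transcripts of the factors themselves did not pass the test: Hif1a had −0.02 and Epas1 0.08 (named after their values were seen). Car12, a carbonic anhydrase, rose (52.5, 49 and 49.4 CPM in shCtrl-OGDR and 148, 147 and 141 CPM in shAnxa2-OGDR; log2 fold change 1.53), and Higd1a, a mitochondrial hypoxia protein, was higher by 0.57 ± 0.104.

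The letters ACGTGC were in 13 of 26 promoters of this hypoxia list (50%), against 6.91% of the promoters of all tested genes that matched (9377 of 11626 genes, 80.7%). The median log2 fold change of the list's genes was −0.27 with the letters and −0.38 without them. Genes with the letters did not move as 1 group. Ankrd37, chosen for its match after its values were seen, was lower, at −1.54 on the log2 scale, and P4ha1, Pfkfb3 and Jmjd6, which also hold the letters, were higher by 0.17, 0.25 and 0.43. Among all genes at least 2-fold lower, 5.38% of 576 promoters held the letters, and among those at least 2-fold higher 6.44% of 326. A match is a description of letters in this window and not of binding.

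The integrated stress response list was lower as well. Of 41 members tested, 7 were higher and 30 lower (median log2 fold change −0.40, against 0.42 without OGD/R and −0.07 for shAnxa2-CTRL against shCtrl-OGDR). The letters TGATGCAA, the composite element that ATF4 binds with its partners, were on either strand in 6 of 37 promoters of the list (16.2%) and in 0.544% of all matched promoters. The median log2 fold change of the list's genes was −1.29 with the letters and −0.315 without them. Over all 51 matched promoters with the letters it was −0.20. Chac1 and Pycr1 are shown with the letters in capitals, as 2 examples among the list's genes with the letters that fell more than 2-fold.
Chac1: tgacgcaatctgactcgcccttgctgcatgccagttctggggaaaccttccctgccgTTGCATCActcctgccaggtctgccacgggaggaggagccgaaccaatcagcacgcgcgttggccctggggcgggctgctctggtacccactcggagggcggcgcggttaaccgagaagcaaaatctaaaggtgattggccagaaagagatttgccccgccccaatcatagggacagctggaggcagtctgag
Pycr1: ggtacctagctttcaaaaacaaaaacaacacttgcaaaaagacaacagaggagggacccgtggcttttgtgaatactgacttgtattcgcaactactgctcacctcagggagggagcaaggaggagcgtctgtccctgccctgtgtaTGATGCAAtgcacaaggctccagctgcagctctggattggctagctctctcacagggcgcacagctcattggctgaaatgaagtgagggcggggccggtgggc
They lie at chr2:119350992-119351241, plus strand (Chac1, where the letters are on the opposite strand) and chr11:120643749-120643998, minus strand (Pycr1), in GRCm38.p6.

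Chac1, which degrades glutathione, was at 2.93, 1.83 and 2.56 CPM in shCtrl-OGDR and 0.561, 0.556 and 0.339 CPM in shAnxa2-OGDR (log2 fold change −2.30, standard error 0.319, adjusted p = 7.51e-07), and all 6 values were low. Nupr1, a stress-induced nuclear protein, was at 33.8, 27 and 30 CPM in shCtrl-OGDR and 8.47, 6.40 and 9.41 CPM in shAnxa2-OGDR (log2 fold change −1.91, standard error 0.114, adjusted p = 3.23e-13), and Atf5, an ATF4-related transcription factor, at 48.4, 43.4 and 49.5 CPM in shCtrl-OGDR and 18.2, 17.1 and 17.9 CPM in shAnxa2-OGDR (log2 fold change −1.41, standard error 0.077, adjusted p = 7.2e-14). Groups did not overlap in these genes. Members outside the naming rule, given after their values were seen, were lower, at −1.62 ± 0.123 for the proline synthesis enzyme Pycr1, −1.14 ± 0.0846 for the pseudokinase Trib3, −1.12 ± 0.15 for Ddit3 (CHOP), −0.92 ± 0.0575 for asparagine synthetase Asns and −0.76 ± 0.0595 for Atf4 itself. Without OGD/R, Atf5 differed by 0.09, Nupr1 by 0.46 and Chac1 by 0.62. The amino acid transporters Slc7a11 and Slc7a5 went opposite ways after OGD/R: Slc7a11, the cystine importer, was lower (−0.95; 1.80 without OGD/R), and Slc7a5, which imports leucine, was higher (0.90; −0.32 without).

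Autophagy genes were lower and lysosomal genes more mildly so. In autophagy, of 51 members tested, 5 were higher and 37 lower (median log2 fold change −0.39, against 0.14 without OGD/R and −0.14 for shAnxa2-CTRL against shCtrl-OGDR). Tfeb, the transcription factor of lysosomal and autophagy genes, was at 70.2, 62.7 and 67.4 CPM in shCtrl-OGDR and 23.8, 23 and 27 CPM in shAnxa2-OGDR (log2 fold change −1.44, standard error 0.0707, adjusted p = 1.04e-14), and Calcoco1, an autophagy receptor, at 86, 79 and 82.8 CPM in shCtrl-OGDR and 30.2, 28.2 and 29.7 CPM in shAnxa2-OGDR (log2 fold change −1.49, standard error 0.0634, adjusted p = 8.9e-16). Both were separated between groups, with log2 fold changes of 0.41 and 0.60 without OGD/R and −0.78 and −0.65 for shAnxa2-CTRL against shCtrl-OGDR. The kinases Ulk1 and Ulk2, which start autophagosome formation, were lower, at −1.04 ± 0.0998 and −1.04 ± 0.0718, and Pink1, the kinase that marks damaged mitochondria, at −1.07 ± 0.0618; these were named after their values were seen. Atg4d (0.75) and Gabarapl2 (0.26), a processing enzyme and a member of the LC3 family, were higher, the latter not without shCtrl-OGDR replicate 3 or shAnxa2-OGDR replicate 3 (adjusted p 0.0924 and 0.143 by edgeR). In the lysosome list, of 71 members tested, 10 were higher and 40 lower (median log2 fold change −0.18, against 0.07 without OGD/R and −0.14 for shAnxa2-CTRL against shCtrl-OGDR). Naglu, a heparan sulfate hydrolase, was lower, at −1.32 ± 0.0631, and Gusb, beta-glucuronidase, was higher by 0.45 ± 0.0483. Of the 71 lysosomal genes, 12 were lower both with and without OGD/R, and 17 were lower after it and higher without it. Over all genes tested, these shares were 5.96% and 16.7%.

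In glucose metabolism, of 47 members tested, 12 were higher and 27 lower (median log2 fold change −0.18, against 0.24 without OGD/R and 0 for shAnxa2-CTRL against shCtrl-OGDR). Gys1, glycogen synthase of muscle and other tissues, was at 209, 249 and 250 CPM in shCtrl-OGDR and 70.5, 80.9 and 76 CPM in shAnxa2-OGDR (log2 fold change −1.64, standard error 0.0647, adjusted p = 2.84e-16), and Pdk2, which inhibits pyruvate dehydrogenase, was at 4.18, 3.89 and 4.20 CPM in shCtrl-OGDR and 0.714, 0.914 and 0.582 CPM in shAnxa2-OGDR (log2 fold change −2.44, standard error 0.26, adjusted p = 1.09e-08). Slc16a1, the lactate and pyruvate transporter MCT1, was higher, at 170, 178 and 172 CPM in shCtrl-OGDR and 370, 391 and 376 CPM in shAnxa2-OGDR (log2 fold change 1.13, standard error 0.0472, adjusted p = 7e-16). These groups did not overlap, and each of the 3 genes differed the other way without OGD/R (0.62, 1.64 and −0.83). Pck2, mitochondrial PEP carboxykinase, fell from 264, 226 and 208 to 77.5, 70.1 and 82.2 CPM.

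Lipid-handling genes controlled by LXR and PPAR receptors were lower: of 35 members tested, 4 were higher and 22 lower (median log2 fold change −0.28, against 0.03 without OGD/R and −0.20 for shAnxa2-CTRL against shCtrl-OGDR). Fabp4, a fatty acid chaperone of macrophages, was at 122, 101 and 121 CPM in shCtrl-OGDR and 43.6, 36.4 and 38.6 CPM in shAnxa2-OGDR (log2 fold change −1.54, standard error 0.0826, adjusted p = 5.24e-14). Cd36, the scavenger receptor that takes up oxidized lipid, was at 49, 53.3 and 50.4 CPM in shCtrl-OGDR and 20.5, 19.3 and 14.6 CPM in shAnxa2-OGDR (log2 fold change −1.49, standard error 0.0962, adjusted p = 1.53e-12), and was lower without OGD/R too (−2.57). In both genes the libraries were separated by group. Cpt1a, which admits fatty acids to mitochondria, was higher by 1.3 ± 0.0716, and Nr1h3, which encodes LXR alpha, by 0.93 ± 0.0937. The synthesis side was mixed: of 41 genes of cholesterol and fatty acid synthesis tested, 18 were higher and 15 lower, with fatty acid synthase Fasn at 581, 595 and 560 CPM in shCtrl-OGDR and 1150, 1200 and 1290 CPM in shAnxa2-OGDR (log2 fold change 1.07) and Insig1, which holds back sterol synthesis, at 270, 262 and 252 CPM in shCtrl-OGDR and 92.8, 89.9 and 103 CPM in shAnxa2-OGDR (−1.46).

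**Figure D3:**
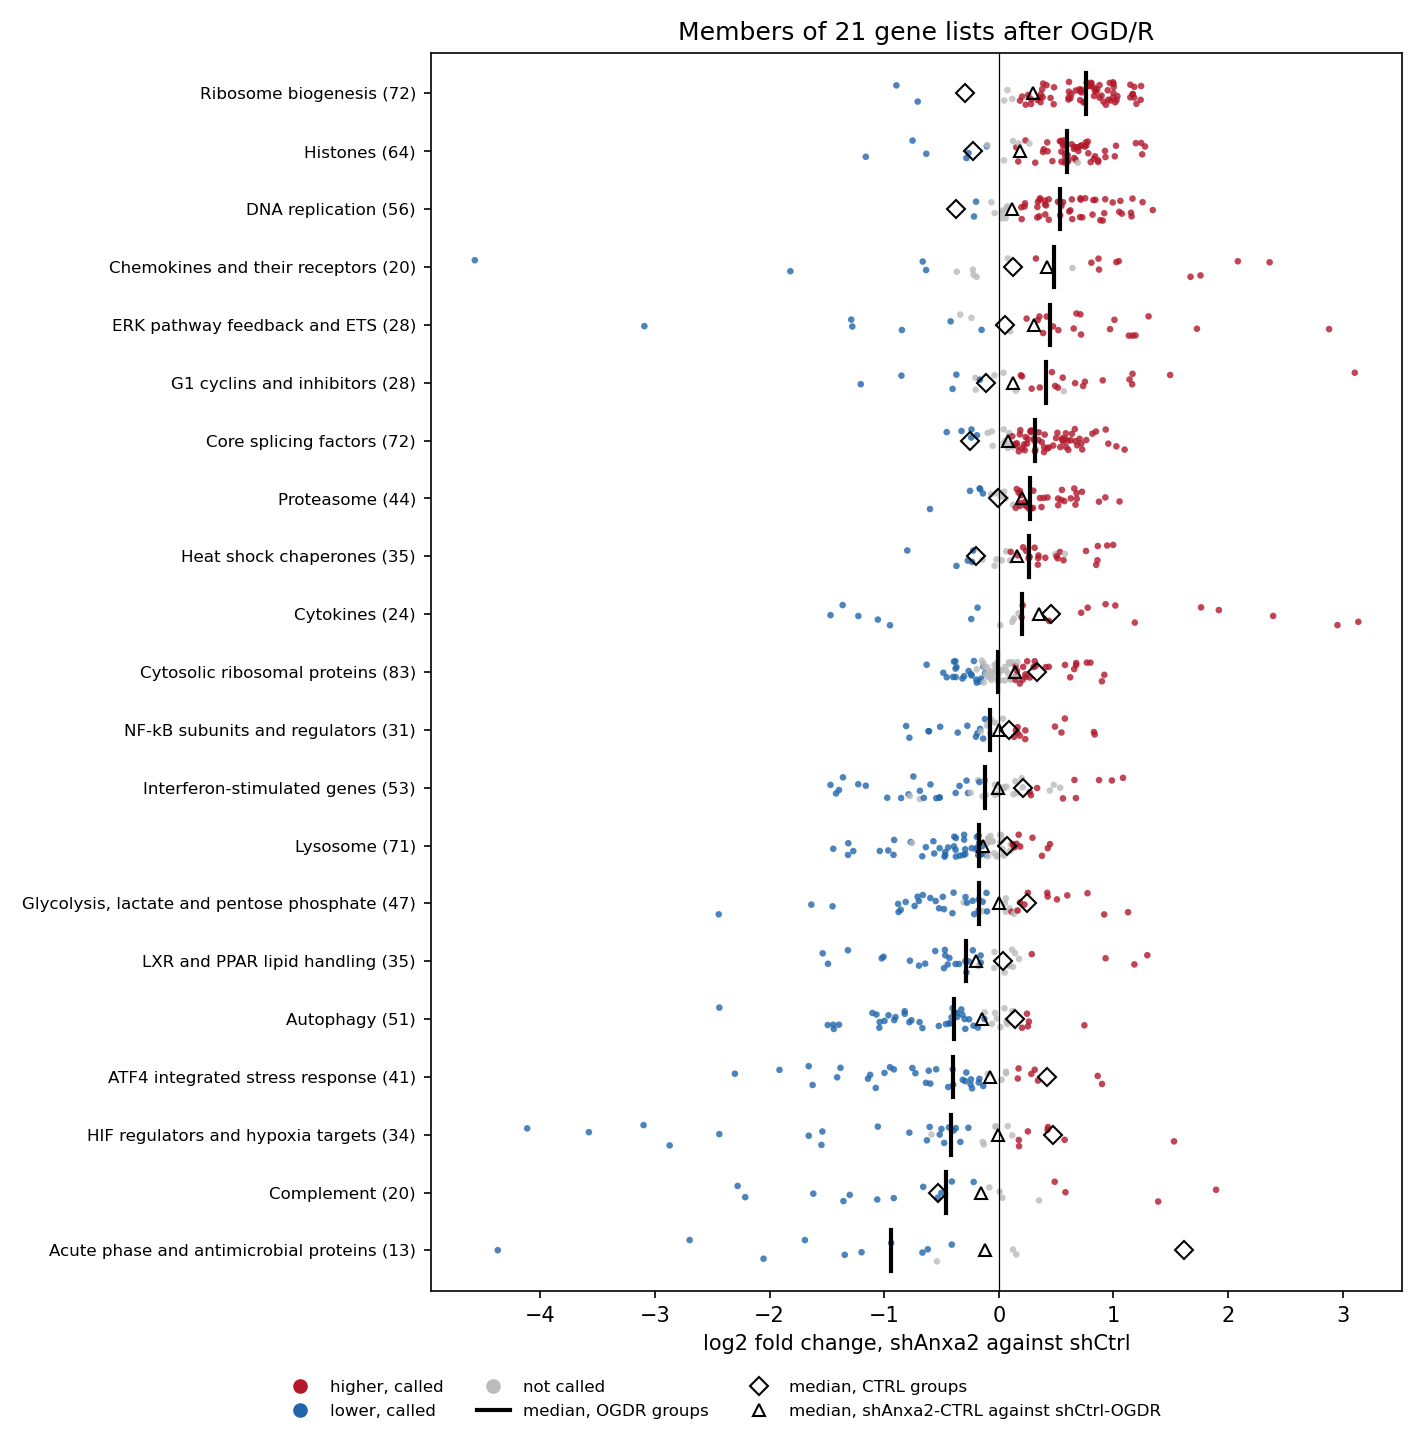
Each point is a tested member of 1 of 21 gene lists (number tested in parentheses), placed by its log2 fold change in shAnxa2-OGDR against shCtrl-OGDR, red where called higher, blue where called lower and grey where not called. Bars mark the list median after OGD/R, diamonds the median without OGD/R and triangles the median of shAnxa2-CTRL against shCtrl-OGDR. The ribosome biogenesis median is 0.76 after OGD/R and −0.29 without it, and the HIF median −0.42 and 0.47.

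Genes that build ribosomes were higher in shAnxa2-OGDR. Of 72 members tested, 67 were higher and 2 lower, and 15 were at least 2-fold higher (median log2 fold change 0.76, against −0.29 without OGD/R and 0.30 for shAnxa2-CTRL against shCtrl-OGDR). The members' range was −0.89 to 1.24. Rrs1, a ribosome assembly factor, was at 63, 63.2 and 66.5 CPM in shCtrl-OGDR and 151, 149 and 156 CPM in shAnxa2-OGDR (log2 fold change 1.24, standard error 0.0554, adjusted p = 2.07e-15), and Rrp9, a component of the small nucleolar particle that processes ribosomal RNA, at 51.7, 51.4 and 51.7 CPM in shCtrl-OGDR and 120, 119 and 127 CPM in shAnxa2-OGDR (log2 fold change 1.24, standard error 0.0481, adjusted p = 2.16e-16). No library of one group reached the other. Brix1 (−0.89) and Nop53 (−0.71) were the 2 members that were lower, and Brix1 was lower without OGD/R as well (−1.59). The ribosomal proteins of the cytosol were divided, with 25 of 83 higher, 21 lower and a median of −0.01 (0.33 without OGD/R). Of 77 mitochondrial ribosomal proteins, 47 were higher and 12 lower (median 0.25). In the promoters, the letters CCGGAAGT, which ETS factors bind, were on either strand in 10 of 63 of the ribosome biogenesis list (15.9%) against 6.47% of all. This share was not particular to the list. It was 12.9% for cytosolic ribosomal proteins, 13.2% for mitochondrial ones, 16.2% for the proteasome and 19.6% for DNA replication. Among all genes at least 2-fold higher it was 5.83%, and among those at least 2-fold lower 2.78%.

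The replication machinery was higher too. In DNA replication, of 56 members tested, 46 were higher and 2 lower (median log2 fold change 0.54, against −0.37 without OGD/R and 0.12 for shAnxa2-CTRL against shCtrl-OGDR). Cdc6, which loads the replicative helicase, was at 29.9, 29.8 and 28.6 CPM in shCtrl-OGDR and 76.1, 78.1 and 69.9 CPM in shAnxa2-OGDR (log2 fold change 1.34, standard error 0.0571, adjusted p = 9.08e-16), and Rrm2, a subunit of ribonucleotide reductase, at 73.8, 85.8 and 80 CPM in shCtrl-OGDR and 191, 198 and 182 CPM in shAnxa2-OGDR (log2 fold change 1.25, standard error 0.0529, adjusted p = 8.29e-16). For histone genes, of 64 members tested, 52 were higher and 6 lower (median log2 fold change 0.59, against −0.23 without OGD/R and 0.18 for shAnxa2-CTRL against shCtrl-OGDR). Many histone genes are near-identical copies in 1 cluster, and a read can fit several, so their counts are uncertain gene by gene. H1f0, the linker histone of resting cells, was lower, at −1.16 ± 0.0522. Among G1 cyclins, kinases and inhibitors, of 28 members tested, 17 were higher and 5 lower (median log2 fold change 0.41, against −0.11 without OGD/R and 0.12 for shAnxa2-CTRL against shCtrl-OGDR). Ccne2, cyclin E2, was at 6.49, 8.43 and 7.22 CPM in shCtrl-OGDR and 20.6, 23.5 and 18.2 CPM in shAnxa2-OGDR (log2 fold change 1.49, standard error 0.107, adjusted p = 9.97e-12), and Rb1, the retinoblastoma protein that restrains S phase entry, at 28, 25.9 and 30.4 CPM in shCtrl-OGDR and 12.3, 12.6 and 11.6 CPM in shAnxa2-OGDR (log2 fold change −1.20, standard error 0.0896, adjusted p = 1.97e-11). In neither gene did groups overlap. Mitotic genes moved less: of 66 members tested, 34 were higher and 14 lower (median 0.16, range −0.45 to 0.69). Cdk1 was higher by 0.65 ± 0.0514 and Ccnb2, cyclin B2, lower, at −0.45 ± 0.0507. Without OGD/R, 45 of the 56 replication genes and 47 of the 66 mitotic genes were lower in shAnxa2 cells.

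RNA and protein handling followed the same direction. Of 72 core splicing factors tested, 56 were higher and 5 lower (median log2 fold change 0.32, against −0.25 without OGD/R and 0.08 for shAnxa2-CTRL against shCtrl-OGDR). U2af1, which recognizes the 3′ splice site, was at 43.7, 45.9 and 41.6 CPM in shCtrl-OGDR and 92.3, 89.1 and 99.8 CPM in shAnxa2-OGDR (log2 fold change 1.1, standard error 0.0642, adjusted p = 2.6e-13), and Srsf2, a serine- and arginine-rich factor, at 168, 187 and 161 CPM in shCtrl-OGDR and 346, 331 and 374 CPM in shAnxa2-OGDR (log2 fold change 1.02, standard error 0.0651, adjusted p = 1.14e-12). In the proteasome, of 44 members tested, 33 were higher and 5 lower (median log2 fold change 0.27, against −0.01 without OGD/R and 0.21 for shAnxa2-CTRL against shCtrl-OGDR). Psmd6, a lid subunit, was at 110, 115 and 117 CPM in shCtrl-OGDR and 206, 221 and 225 CPM in shAnxa2-OGDR (log2 fold change 0.93, standard error 0.0538, adjusted p = 2.16e-13). Among heat shock chaperones, of 35 members tested, 22 were higher and 5 lower (median log2 fold change 0.27, against −0.20 without OGD/R and 0.16 for shAnxa2-CTRL against shCtrl-OGDR). Hspa8, the constitutive Hsp70, was at 1860, 1930 and 1860 CPM in shCtrl-OGDR and 3770, 3650 and 3470 CPM in shAnxa2-OGDR (log2 fold change 0.94, standard error 0.0411, adjusted p = 1.31e-15), with the control libraries tight and all below the knockdown libraries. The endoplasmic reticulum chaperones were split, with 23 of 41 higher and 12 lower. Hyou1, an Hsp70 of that compartment, was at 586, 610 and 569 CPM in shCtrl-OGDR and 1210, 1210 and 1290 CPM in shAnxa2-OGDR (log2 fold change 1.07, standard error 0.0477, adjusted p = 2.07e-15), and Crebrf, a regulator of the unfolded protein response, was lower, at −1.39 ± 0.106. In polyamine synthesis, Odc1 was at 130, 148 and 138 CPM in shCtrl-OGDR and 405, 391 and 386 CPM in shAnxa2-OGDR and the spermidine synthase Srm at 394, 423 and 401 CPM in shCtrl-OGDR and 844, 815 and 888 CPM in shAnxa2-OGDR, both separated by group.

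Genes of the ERK pathway's own feedback were mostly higher. Of 28 members tested, 19 were higher and 6 lower (median log2 fold change 0.45, against 0.06 without OGD/R and 0.31 for shAnxa2-CTRL against shCtrl-OGDR). Dusp6, the phosphatase that removes ERK phosphorylation, was at 2.31, 3.28 and 4.92 CPM in shCtrl-OGDR and 23.9, 24.3 and 27.3 CPM in shAnxa2-OGDR (log2 fold change 2.88, standard error 0.151, adjusted p = 3.18e-14). Ets2, an ETS transcription factor, was at 63.8, 59 and 61.9 CPM in shCtrl-OGDR and 155, 152 and 150 CPM in shAnxa2-OGDR (log2 fold change 1.31, standard error 0.0489, adjusted p = 1.01e-16), and Etv4 at 2.07, 2.10 and 2.20 CPM in shCtrl-OGDR and 6.33, 7.39 and 7.32 CPM in shAnxa2-OGDR (log2 fold change 1.73, standard error 0.146, adjusted p = 2.05e-10). All 3 were separated by group, as were 69.9% of all genes tested. Without OGD/R, Ets2 and Etv4 were also higher (1.03 and 1.79), whereas Dusp6 was lower (−0.69). Ets1 (−3.09) and Mapk3 (−1.29), which encodes ERK1, were lower. For immediate early genes and the Myc family the counts were 7 higher and 11 lower of 26: Fos rose (2.27, 3.09 and 2.77 CPM in shCtrl-OGDR and 8.31, 6.32 and 6.59 CPM in shAnxa2-OGDR), and Myc fell (11.1, 9.73 and 9.37 CPM in shCtrl-OGDR and 2.91, 3.54 and 2.28 CPM in shAnxa2-OGDR).

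Inflammatory genes did not move as 1 block. Of 24 cytokines tested, 13 were higher and 7 lower (median log2 fold change 0.20, against 0.46 without OGD/R and 0.35 for shAnxa2-CTRL against shCtrl-OGDR), and of 20 chemokines and receptors, 10 were higher and 4 lower (median log2 fold change 0.48, against 0.12 without OGD/R and 0.42 for shAnxa2-CTRL against shCtrl-OGDR). Tnf was at 25.2, 31.4 and 28.9 CPM in shCtrl-OGDR and 119, 107 and 98.1 CPM in shAnxa2-OGDR (log2 fold change 1.92, standard error 0.0796, adjusted p = 6.1e-16), Il1b at 0.899, 1.34 and 1.08 CPM in shCtrl-OGDR and 7.14, 5.76 and 4.66 CPM in shAnxa2-OGDR (log2 fold change 2.39, standard error 0.238, adjusted p = 3.46e-09), and Ccl2, which draws monocytes, at 36.1, 40 and 39 CPM in shCtrl-OGDR and 166, 185 and 137 CPM in shAnxa2-OGDR (log2 fold change 2.08, standard error 0.104, adjusted p = 1.48e-14). Every shAnxa2-OGDR library exceeded every shCtrl-OGDR library in these genes. Without OGD/R, Tnf, Il1b and Ccl2 had 0.81, 0.86 and 0.06, and for shAnxa2-CTRL against shCtrl-OGDR 1.55, 2.17 and 1.66. In the shCtrl line, mean Tnf was 47.7 CPM without and 28.5 CPM with OGD/R, and Il1b 2.76 and 1.10 CPM. The study reported the reverse by RT-qPCR and ELISA: TNF-α and IL-1β rose with OGD/R in BV2 cells, and less so with the knockdown. Its methods give a longer reoxygenation than these labels. Il1a (9.35, 9.62 and 9.42 CPM in shCtrl-OGDR and 4.59, 3.38 and 2.33 CPM in shAnxa2-OGDR; log2 fold change −1.47), Il15 (−1.36), the chemerin receptor Ccrl2 (−1.82) and Ccl9 (−0.66) were lower. Cxcl2, a neutrophil chemokine, was at 3.09, 2.79 and 3.79 CPM in shCtrl-OGDR and 18.5, 17.8 and 12.8 CPM in shAnxa2-OGDR (log2 fold change 2.36, standard error 0.147, adjusted p = 8.33e-13), and had 4.75 without OGD/R. Its promoter is shown because it is the one among 14 matched chemokine and chemokine receptor promoters that holds any of the NF-κB letters searched (GGGACTTTC, GGGAATTTC, GGGGATTTC; both strands), which were in 0.704% of all matched promoters.
Cxcl2: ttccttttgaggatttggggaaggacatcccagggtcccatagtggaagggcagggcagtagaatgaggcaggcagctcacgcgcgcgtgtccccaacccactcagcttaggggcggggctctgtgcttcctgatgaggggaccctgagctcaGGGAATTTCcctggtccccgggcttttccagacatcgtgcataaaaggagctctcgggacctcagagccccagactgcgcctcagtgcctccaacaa
It lies at chr5:90903649-90903898, plus strand in GRCm38.p6, with the capitals 88 bases before the start.

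Of 31 NF-κB subunits and regulators, 12 were higher and 12 lower (38.7% each, median −0.08), near the 33.8% and 34.2% of all genes tested. Without OGD/R, 13 were higher and 5 lower. Rela was barely called (66.2, 75.3 and 67.2 CPM in shCtrl-OGDR and 78.5, 71.9 and 83.9 CPM in shAnxa2-OGDR; log2 fold change 0.16, adjusted p = 0.0293 from edgeR's test), and not called without any 1 of shCtrl-OGDR replicates 1 and 3 or shAnxa2-OGDR replicates 1 and 3 (adjusted p 0.0625 to 0.197). Nfkbia, the inhibitor that NF-κB itself induces, was higher (0.58 ± 0.0508), and Nfkbiz (−0.81) and the kinase Ikbke (−0.78) were lower. Nos2, which makes nitric oxide, was at 48.8, 57.2 and 58.2 CPM in shCtrl-OGDR and 8.47, 8.38 and 5.43 CPM in shAnxa2-OGDR after OGD/R and at 2.38, 3.63 and 3.31 CPM in shCtrl-CTRL and 93.8, 87.6 and 81.5 CPM in shAnxa2-CTRL, so that it was lower in one treatment and higher in the other. Ptgs2, the inducible cyclooxygenase (COX2), was higher (19.8, 25.2 and 24.2 CPM in shCtrl-OGDR and 41.4, 40.5 and 30.9 CPM in shAnxa2-OGDR, log2 fold change 0.71). The gene had 0.56 without OGD/R and 0.97 for shAnxa2-CTRL against shCtrl-OGDR. By RT-qPCR, the study reported less COX2 after OGD/R with the knockdown. Acute phase and antimicrobial genes were one-directional: none of 13 tested was higher and 10 were lower (median log2 fold change −0.94, against 1.62 without OGD/R and −0.12 for shAnxa2-CTRL against shCtrl-OGDR). Lbp, which presents lipopolysaccharide, was at 9.89, 9.31 and 8.55 CPM in shCtrl-OGDR and 0.408, 0.516 and 0.388 CPM in shAnxa2-OGDR (log2 fold change −4.37, standard error 0.244, adjusted p = 1.13e-13), and Marco, a scavenger receptor for bacteria, at 60.4, 65.1 and 63.7 CPM in shCtrl-OGDR and 10.9, 10.2 and 8.05 CPM in shAnxa2-OGDR (log2 fold change −2.70, standard error 0.0938, adjusted p = 2.62e-17). Lcn2, an iron-siderophore binder, was at 12.5, 9.81 and 10.1 CPM in shCtrl-OGDR and 4.59, 4.57 and 3.59 CPM in shAnxa2-OGDR and had 3.54 without OGD/R. Of 53 interferon-stimulated genes, 9 were higher and 22 lower (median −0.12; 0.21 without OGD/R).

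In the inflammasome and pyroptosis list, of 19 members tested, 4 were higher and 12 lower (median −0.41). P2rx7, the ATP-gated channel upstream of the inflammasome, was at 1740, 1690 and 1700 CPM in shCtrl-OGDR and 677, 707 and 693 CPM in shAnxa2-OGDR (log2 fold change −1.31, standard error 0.0419, adjusted p = 7.24e-18), and was lower without OGD/R (−0.92) and in shAnxa2-CTRL against shCtrl-OGDR (−1.25). Nlrp3, the sensor, went the other way, at 34.3, 44 and 35.2 CPM in shCtrl-OGDR and 81.5, 77 and 76 CPM in shAnxa2-OGDR (log2 fold change 1.04, standard error 0.0714, adjusted p = 4.55e-12; 0.44 without OGD/R). Both were separated by group. TREM, SIGLEC and related paired receptors had 11 higher and 11 lower of 30 (36.7% each), near the shares over all genes tested. Trem1 and the activating receptor Pilrb1 (2.55) were higher. The inhibitory receptors Pirb (23, 27.2 and 24.7 CPM in shCtrl-OGDR and 4.49, 4.61 and 3.69 CPM in shAnxa2-OGDR, log2 fold change −2.55) and Clec12a (19.2, 25 and 22.1 CPM in shCtrl-OGDR and 5.00, 5.92 and 4.56 CPM in shAnxa2-OGDR, −2.09) were lower. In pattern recognition, 14 of 31 were lower and 9 higher, with Irak3, an inhibitor of Toll-like receptor signalling, lower, at −1.05 ± 0.0764 and the adaptor Myd88 higher by 0.94 ± 0.0523. Of the 32 genes the study itself discussed for BV2 cells, 24 were tested, and 13 were lower and 5 higher; the study chose part of them on these samples, so their count is no independent evidence of a direction. Counts of the other 8, among them Il6, Il10, Arg1 and Axl, were 0 to 17 in every OGDR library and too low to be tested.

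All 24 markers of microglia and macrophages passed the filter on low levels, although Tmem119, Cx3cr1, P2ry12 and C1qa, typical of microglia in the brain, had means of 10.3 CPM or less in both groups. Of 24 members tested, 5 were higher and 15 lower (median log2 fold change −0.44, against −0.18 without OGD/R and −0.17 for shAnxa2-CTRL against shCtrl-OGDR). Their summed level was 7160 to 7560 CPM in shCtrl-OGDR and 5470 to 5630 CPM in shAnxa2-OGDR. In bulk RNA, fewer cells of a kind and less RNA per cell cannot be told apart. Spi1, which encodes the lineage factor PU.1 (0.07), and Cd68 (−0.10) did not pass the test, and Csf1r, the receptor that keeps microglia alive, was higher by 0.10 ± 0.0435. Adgre1, which encodes F4/80, was lower, at −1.59 ± 0.0505, and Lyz2, lysozyme, at −0.94 ± 0.0716 (these 5 were named after their values were seen). Tmem119 was at 1.41, 1.83 and 2.36 CPM in shCtrl-OGDR and 9.79, 10.7 and 10.3 CPM in shAnxa2-OGDR (log2 fold change 2.49, standard error 0.151, adjusted p = 5.16e-13). Cd14, the lipopolysaccharide co-receptor, was higher by 0.68 ± 0.0637.

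Most markers of other cells had means under 0.5 CPM. With a mean under 0.5 CPM over the OGDR libraries were 13 of 15 neuronal, 10 of 11 astrocyte, 8 of 11 oligodendrocyte, 8 of 13 endothelial and mural, and all 11 fibroblast and epithelial markers. The summed endothelial and mural level moved with the comparison, at 256 to 274 CPM in shCtrl-OGDR and 455 to 472 CPM in shAnxa2-OGDR. Of its 6 tested members 4 were higher and 0 lower, beside 33.8% and 34.2% of all genes tested. Without OGD/R, 1 of the 6 was higher and 3 were lower, and these 3 were all higher after it. Kdr, a receptor of Vegfa, was at 66.9, 60.7 and 65.2 CPM in shCtrl-OGDR and 225, 226 and 226 CPM in shAnxa2-OGDR (log2 fold change 1.81, standard error 0.0477, adjusted p = 1.54e-19). For Kdr the log2 fold change was −0.50 without OGD/R and 0.88 for shAnxa2-CTRL against shCtrl-OGDR. Flt1, another receptor of Vegfa, was at 139, 142 and 154 CPM in shCtrl-OGDR and 180, 171 and 182 CPM in shAnxa2-OGDR and was higher by 0.30 ± 0.0552 (log2 fold change ± standard error). The von Willebrand factor gene Vwf was at 51.2, 49.0 and 50.8 CPM in shCtrl-OGDR and 52.6, 51.6 and 56.8 CPM in shAnxa2-OGDR and was not called. Acta2, smooth muscle actin, was higher by 0.51 ± 0.149, and Cdh5, the endothelial cadherin, by 2.91 ± 0.424 from a mean of 0.211 CPM in shCtrl-OGDR. Pecam1, Cldn5 and Tek, also endothelial markers, had means under 0.5 CPM. The summed astrocyte level moved the other way, at 39.5 to 41.2 CPM in shCtrl-OGDR and 20.5 to 25.4 CPM in shAnxa2-OGDR. Nearly all of it was Aldoc, aldolase C of glycolysis, which was at 38.8, 38.9 and 41 CPM in shCtrl-OGDR and 19.5, 21.8 and 24.1 CPM in shAnxa2-OGDR and was lower, at −0.86 ± 0.08. Flt1, Vwf, Cdh5, Pecam1, Cldn5 and Tek were named after their values were seen. The part of other cells in the results was not tested.

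Several complement genes were lower in both treatments. Of 20 members tested, 4 were higher and 12 lower after OGD/R (median log2 fold change −0.46, against −0.53 without OGD/R and −0.15 for shAnxa2-CTRL against shCtrl-OGDR), and 7 of 20 were lower with and without OGD/R (5.96% of all genes). C1qb, a chain of the initiating C1q complex, was at 42.9, 52.5 and 47.3 CPM in shCtrl-OGDR and 11.1, 9.34 and 10.5 CPM in shAnxa2-OGDR after OGD/R (log2 fold change −2.21, standard error 0.0984, adjusted p = 2.05e-15) and at 55.1, 45.2 and 47.8 CPM in shCtrl-CTRL and 8.70, 6.88 and 8.10 CPM in shAnxa2-CTRL. C1qc had log2 fold changes of −1.62 and −2.47 after and without OGD/R. Properdin, Cfp, was higher after OGD/R (1.39) and lower without it (−0.73). Of 27 phagocytosis, scavenger and Fc receptor genes, 14 were lower after OGD/R and 6 higher, and 9 were lower in both treatments. Mertk, which recognizes apoptotic cells, was at 17.2, 16.9 and 14.7 CPM in shCtrl-OGDR and 8.72, 6.99 and 8.73 CPM in shAnxa2-OGDR (log2 fold change −1.01, standard error 0.123, adjusted p = 9.61e-08; −0.44 without OGD/R), and Mrc1, the mannose receptor, at 4.58, 5.76 and 5.38 CPM in shCtrl-OGDR and 2.19, 2.74 and 3.06 CPM in shAnxa2-OGDR (log2 fold change −0.97, standard error 0.164, adjusted p = 1.35e-05; −0.98 without).

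Because the distances crossed between treatments, genes were also counted that were lower in each shAnxa2 group than in each shCtrl group. There were 595 (5.12% of those tested), and 422 were higher in each (3.63%). The 4 contrasts share libraries in pairs, so they are not 4 independent results. Of the 595, 92 were at least 2-fold lower after OGD/R and 46 in all 4 contrasts, and of the 422, 50 and 25. Maf, a transcription factor of macrophages that controls C1q genes, was at 40.4, 43.8 and 42.2 CPM in shCtrl-CTRL and 57, 65 and 62.2 CPM in shCtrl-OGDR and 9.90, 11.8 and 12.5 CPM in shAnxa2-OGDR, and at 15, 13.9 and 13.7 CPM in shAnxa2-CTRL, so both shAnxa2 groups lay below both shCtrl groups (log2 fold change −2.43, standard error 0.081, adjusted p = 1.49e-17). Hdac9, a class IIa histone deacetylase, had −1.52 after OGD/R and −2.51 without it, and Desi2, of the desumoylating peptidase family, −1.80 and −1.41. Those higher included Ccnd2 (3.10 and 1.12), Ablim1, an actin-binding LIM protein (2.63 and 2.68), Ets2, Marcksl1, a relative of Marcks (1.53 and 0.93), and the iron carrier transferrin, Trf (0.98 and 0.99). These genes were ranked by the smaller of their changes after and without OGD/R.

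**Figure D4:**
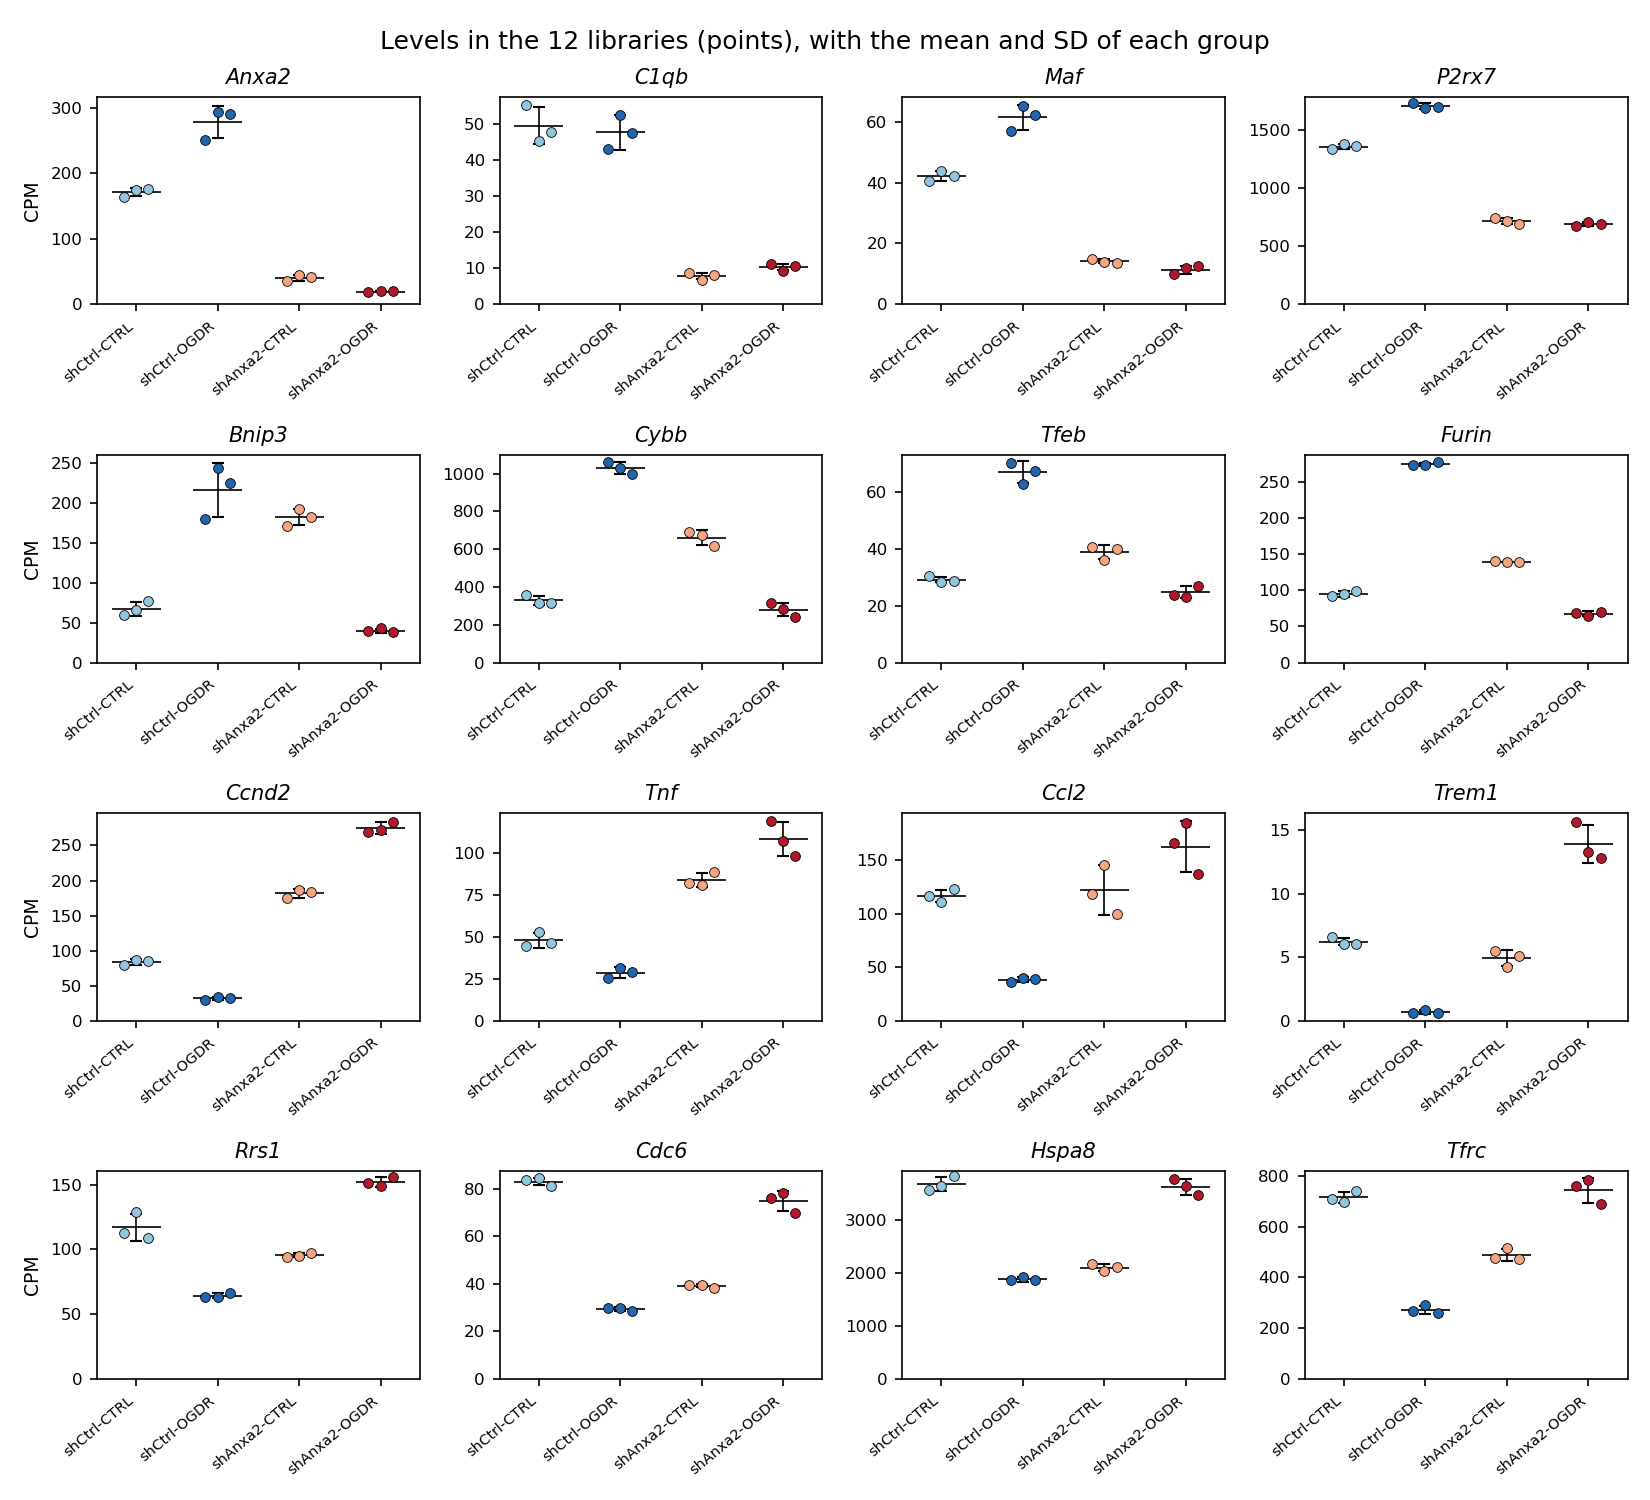
Levels of 16 genes in CPM (vertical axes, from 0) in each of the 12 libraries (points), with the mean and SD of the 3 libraries of each group. Anxa2, C1qb, Maf and P2rx7 are lower in both shAnxa2 groups than in both shCtrl groups, whereas Bnip3, Cybb, Tfeb and Furin have their highest mean in shCtrl-OGDR and their lowest in shAnxa2-OGDR, and Cdc6, Hspa8 and Tfrc their lowest in shCtrl-OGDR.

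Other genes differed at least 2-fold between the lines after OGD/R but by less than 0.1 on the log2 scale without it. They were picked among genes whose interaction was called, so a passed interaction test is no result for them. Myadml2, of unknown function, was at 10.3, 8.51 and 9.32 CPM in shCtrl-OGDR and 0.969, 0.795 and 0.485 CPM in shAnxa2-OGDR (log2 fold change −3.64, standard error 0.221, adjusted p = 4.83e-13; 0.09 without OGD/R). Mpeg1, the pore-forming perforin-2 of macrophages, was at 396, 404 and 388 CPM in shCtrl-OGDR and 154, 148 and 136 CPM in shAnxa2-OGDR (log2 fold change −1.44, standard error 0.0515, adjusted p = 4.3e-17; 0.07 without), and Col4a5, a collagen IV chain, at 87.9, 87.1 and 93.2 CPM in shCtrl-OGDR and 24.8, 27.2 and 26 CPM in shAnxa2-OGDR (log2 fold change −1.78, standard error 0.0794, adjusted p = 2.07e-15; 0.03 without). Ccl2 was of this kind among the higher genes (0.06 without OGD/R), with Clec5a, a myeloid activating receptor (30.4, 36.4 and 37.1 CPM in shCtrl-OGDR and 89.6, 89.7 and 72.6 CPM in shAnxa2-OGDR; log2 fold change 1.28), Ppif, the mitochondrial cyclophilin D (53.7, 56.1 and 47.8 CPM in shCtrl-OGDR and 122, 119 and 123 CPM in shAnxa2-OGDR; 1.2), and Polr3d, a subunit of RNA polymerase III (34.3, 36.6 and 37.3 CPM in shCtrl-OGDR and 88.6, 86.7 and 90.5 CPM in shAnxa2-OGDR; 1.3). Against shCtrl-OGDR the shAnxa2-CTRL libraries also differed, at −0.74 for Mpeg1, −1 for Col4a5 and 1.66 for Ccl2.

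The genes of chromosome 7 were lower more often than those of other chromosomes, which was seen only after the chromosomes were compared and has no test. Of 895 genes tested there (7.7% of all), 49.3% were lower in shAnxa2-OGDR and 18.9% higher, and the median log2 fold change was −0.23. The medians of the other nuclear chromosomes were −0.07 (X) to 0.11 (chromosome 8). Chromosome 7 had a negative median in every contrast of a shAnxa2 group with a shCtrl group: −0.17 without OGD/R, −0.24 for shAnxa2-CTRL against shCtrl-OGDR and −0.17 for shAnxa2-OGDR against shCtrl-CTRL. Of its genes, 319 (35.6%) were below 0 in all 4, and the share on other nuclear chromosomes was 7.31% to 24.7%. In windows of 10 Mb with at least 20 genes tested, the median was below 0 in all 4 contrasts in 13 of 14 windows of chromosome 7 and in 26 of 186 elsewhere. Chromosome 7 held 111 of the 747 genes at least 2-fold lower (14.9%) and 25 of the 425 higher (5.88%). Among genes already described, Bnip3, Furin, Gys1, Nupr1, Atf5, Pirb, Mapk3 and Nop53, all lower after OGD/R, lie there, as does Plaur, which was higher. These genes did not all keep their direction without OGD/R, where Bnip3 had 1.44, Furin 0.55, Gys1 0.62 and Plaur −0.61. Anxa2 lies on chromosome 9. The cause was not tested.

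**Figure D5:**
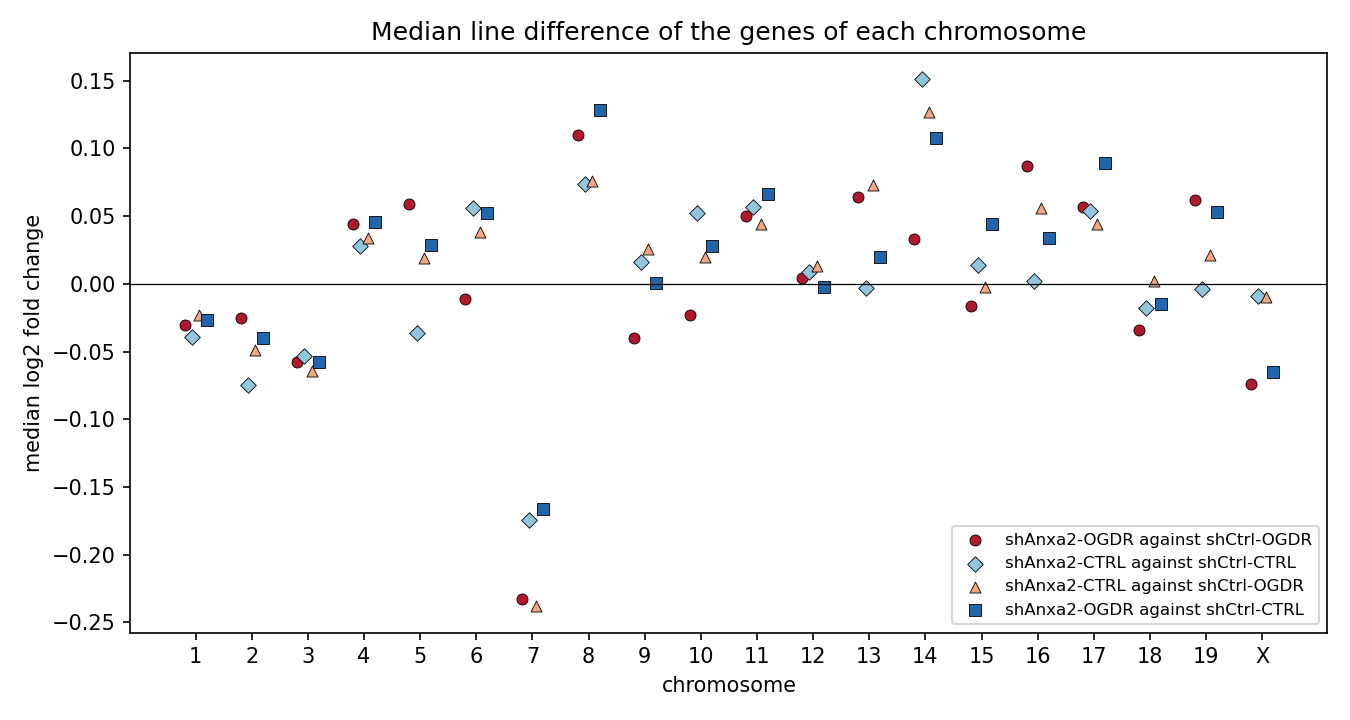
Median log2 fold change (vertical axis) of the tested genes of each nuclear chromosome (horizontal axis) in the 4 contrasts of a shAnxa2 group with a shCtrl group, which share libraries in pairs. Chromosome 7 lies between −0.24 and −0.17 in all 4, below each of the other chromosomes.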

How the data were processed

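Bulk RNA was sequenced from 12 BV2 libraries. Per the labels, reads were aligned to mm39 with HISAT2 2.0.4; the counting tool for these libraries is not given in the sources used here, since the study's methods name TopHat and HTSeq for hippocampus libraries. The authors deposited raw read counts per gene, which were used as deposited, and 12 further columns of normalized values, which were not used. The columns of the 2 OGDR groups were taken by sample title. All 12 libraries were fitted in one model of 4 group means with edgeR 4.0.16 (R 4.3.3): TMM scaling, quasi-likelihood F tests, and Benjamini-Hochberg adjustment over the 11626 genes that reached 0.5 CPM in 3 or more libraries. A gene was called at an adjusted p under 0.05. Standard errors were derived from the F statistic (|log2 fold change| / √F). CPM values are TMM-scaled counts. Depth ranged from 19521877 to 26032961 counts in the OGDR libraries, so a gene at 1 CPM has about 20 counts or more; intervals and tests cover these libraries only. On simulated counts the fit called 192 of 196 changed genes and 8 of the unchanged, of 11478 genes tested. The changes there were 2-fold or 4-fold, and the variation beyond counting error was set to 0.05 for every gene. Smaller differences, and changes in most genes at once, were not simulated.

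The comparison, the 65 gene lists and the rule for named genes were chosen with earlier results of these data known. The rule took Anxa2 and the genes the study discussed; 15 genes per direction of at least 5 CPM and 8 of at least 100 CPM with the largest changes; 2 members per direction of each list; 8 per direction that changed alike with and without OGD/R; and 8 per direction that differed by less than 0.1 without it. Genes outside it were chosen after their values were seen, which also holds for chromosomes and for shAnxa2-CTRL against shCtrl-OGDR. Gene lists were described by counts and medians, with no test of a list. Promoter sequences are the 250 bases before the RefSeq start (GRCm38.p6), matched by gene identifier. Gene coordinates in mm39 were not mixed with them. The alternatives were DESeq2 1.42.0, its size factors, upper quartile scaling, no filter, a filter of 1 CPM, a replicate block, the 6 OGDR libraries alone, a test against 1.2-fold and each library left out. A few genes are not reported here.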

Additional observations from a re-analysis of the deposited data

Results flagged for a closer look

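The difference between the lines depended on the treatment for 8136 of the genes tested (70%), by the interaction term of the edgeR fit. Over all 11626 genes tested, 3892 were called with opposite signs in the 2 treatments. Of the 284 named genes, 261 had a called interaction and 146 were called with opposite signs. Named genes were picked partly for large changes or for a called interaction, so these counts are no result about them. For Anxa2 the interaction was −1.74 on the log2 scale, the reduction being larger after OGD/R. Interaction values, all the difference after OGD/R minus that without it, were −7.74 for Zc3h6, −7.68 for Nos2, −6.92 for Vnn3, −6.28 for Selenbp1, −5.26 for Ndrg1 and −4.39 for Selenbp2. Among inflammatory and antimicrobial genes they were −4.88 for Lcn2, −4.64 for Lbp, −4.21 for Ccrl2 and −4.01 for Il1a. The iron oxidase Cp had −4.56, the very large protein gene Ahnak2 −4.66, the Ras regulator Rasa4 −4.16 and Pdk2 −4.08. Positive values were 4.65 for Trem1, 4.38 for the elastase Mmp12 and 5.26 for Lars2, the last of which rests on shAnxa2-OGDR replicate 1.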

How the results depend on the processing

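No count over all genes moved by more than 1.5 times under any alternative tried. Leaving out 1 of the 6 OGDR libraries at a time gave 3740 to 3823 genes lower, 3615 to 3745 higher, 707 to 771 at least 2-fold lower, 387 to 438 at least 2-fold higher, 7848 to 8004 with an interaction, and −3.91 to −3.78 for Anxa2 (log2). Deviations of same-numbered libraries from their group means were hardly correlated (r of −0.05 to 0.12). With 3 libraries a group this check is weak and cannot exclude that the numbers pair libraries. With the replicate block, 3967 genes were lower and 3923 higher, 746 and 423 at least 2-fold, and the interaction passed for 8114. Upper quartile scaling gave 4248 lower and 3630 higher, and no filter 4202 and 3855. Over 283 named genes other than Anxa2, 3649 of 3675 values kept direction and call, 23 lost the call (those of Rela, Ltbp2, Eno1, Gbp7, Ada, Gabarapl2, Lars2, Cd80 and Orc3), 3 gained it and 0 reversed; the cause was not tested. Of 832 values of the 64 list medians, 713 kept their sign and moved by no more than 1.5 times. The other 119, in 28 lists, moved by more than 1.5 times or changed sign. The medians of 11 lists, most of them near 0, changed sign under at least 1 alternative. The annexin median of −0.30 became −0.66 without shAnxa2-OGDR replicate 1, −0.47 without shCtrl-OGDR replicate 3 and −0.48 with the 1 CPM filter. That of the mitochondrially encoded genes, 0.37, became 0.18 without shAnxa2-OGDR replicate 2, and that of chemokines and receptors, 0.48, became 0.80 with the 1 CPM filter. The plasminogen activation median of 0.27 became −0.05 with that filter and 0.15 without shCtrl-OGDR replicate 3. Depth limits genes near 0.5 CPM, which held the widest errors.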

Other observations

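Genes of oxidative phosphorylation made in the nucleus were divided after OGD/R, and of those encoded by mitochondria some were higher and 0 lower (values in parentheses are log2 fold changes of shAnxa2-OGDR against shCtrl-OGDR unless said otherwise). Of 87 nuclear genes tested, 26 were higher and 19 lower (median log2 fold change 0.02, 0.22 without OGD/R), with Cox6a2 (−2.01), a subunit of cytochrome oxidase known from muscle, lowest among those named. Of 11 mitochondrially encoded genes, 5 were higher and 0 lower (median 0.37, −0.63 without OGD/R), and mt-Cytb, cytochrome b, had 0.90 after and −1.06 without. In the TCA cycle and fatty acid oxidation, 25 of 48 were lower and 9 higher. The NADPH oxidase list had 7 of 10 lower and 1 higher (median −0.30, 0.41 without OGD/R): besides Cybb, its cytosolic subunit Ncf4 was at −0.48. NRF2 targets and glutathione genes had 18 of 49 higher and 19 lower (36.7% and 38.8%), near the shares over all genes tested. The glutathione transferases Gstm2 (−2.90) and Gstm5 (−2.14) were lower, and glutathione peroxidase Gpx1 (1.04) was higher. Gstm genes are close copies of each other, so their counts are uncertain one by one.

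Of 31 p53 target genes, 17 were lower and 8 higher (median −0.34): Ccng2 (−1.99) was lower, and the kinase Plk3 (1.54) and the exonuclease Aen (1.41) were higher. Among BCL2 family members and caspases, 10 of 38 were higher and 13 lower; the pro-apoptotic Bbc3 (PUMA) had −1.59 and Bid 1.13. In JAK, STAT and SOCS genes 14 of 28 were lower and 4 higher (median −0.17, 0.19 without OGD/R), with Cish, a feedback inhibitor of cytokine receptors, at −1.35 after and 1.99 without. Of 21 clock genes, 11 were lower and 4 higher; the clock output factor Dbp had −1.67 and Rora −2.07, and Per2 had 1.13. TGF-beta and BMP genes had 12 of 29 higher and 6 lower (median 0.14, −0.25 without OGD/R), among them Id3, an inhibitor of differentiation factors (1.16 after, −1.93 without). MHC class I genes were divided (8 higher and 10 lower of 24), with B2m at −0.68. Of 54 actin and membrane linker genes, 21 were higher and 17 lower; Evl, which extends actin filaments, was lower after OGD/R and without it (−2.65 and −1.56), and Zyx, zyxin of focal adhesions, differed in sign (1.19 and −0.99). In purinergic receptors and ectonucleotidases, 9 of 21 were lower and 7 higher; the lowest of those named was P2rx3 (−2.79).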
